A study of Bos taurus with 6 samples.

Results

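The MCM2 to MCM7 genes encode the subunits of the minichromosome maintenance helicase, which unwinds DNA ahead of the replication fork. Of the 6 gene names, 5 could be followed here, MCM3, MCM4, MCM5, MCM6 and MCM7, among 13896 gene symbols in all; MCM2 was not analysed here. The genes were chosen by symbol, and the rows that carry a symbol were summed in each embryo. Each library came from 1 bovine morula that had been fertilized in vitro and was collected on day 6. In the MAT2A-inhibited group, 3 embryos were cultured with 20 µM FIDAS-5, which inhibits the enzyme MAT2A, from 72 h after insemination (day 3, at 8 to 16 cells) to 144 h. In the control group, 3 embryos received 0.1% DMSO, the vehicle, over the same time. All embryos were grown in the same semi-defined medium with serum albumin under 5% oxygen. The DMSO content of the treated cultures and the breed and sex of the embryos are not given in the labels.

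In textbook accounts the subunits form a ring with a single copy of each. The origin recognition complex, with CDC6 and CDT1, loads this ring onto DNA before S phase, and geminin blocks reloading. The kinase CDC7 with DBF4 and the cyclin-dependent kinases then activate it, together with CDC45 and the GINS complex. Early embryos begin with stored maternal transcripts and divide quickly, and in cattle the embryonic genome takes over at around the stage when treatment began. MAT2A makes S-adenosylmethionine, the methyl donor for DNA, RNA, histones and many small molecules.

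The values are FPKM, fragment numbers scaled to transcript length and to the mapped fragments of the library, so levels of different genes can be set side by side per length. Sequencing depth, worked out from the spacing of low values, was 46500000 to 57700000 fragments in MAT2A-inhibited libraries and 53400000 to 59900000 in control libraries. POU5F1, a pluripotency factor, stood at 255 to 376 FPKM in MAT2A-inhibited embryos and at 312 to 431 FPKM in control embryos. Of the other pluripotency factors followed, NANOG was at 1.16 to 1.88 FPKM in MAT2A-inhibited embryos and 2.54 to 20.3 FPKM in control embryos, and SOX2 was at 45.2 to 50.8 FPKM in MAT2A-inhibited embryos and 27.6 to 41.5 FPKM in control embryos. Neither overlapped between the groups, as held for 13.4% of all tested genes, and neither passed limma (adjusted p = 0.746 for both). KRT8, a keratin of the trophectoderm, ranged from 38.7 to 229.9 FPKM in MAT2A-inhibited embryos and from 4.49 to 400.5 FPKM in control embryos. Whether embryos of a group shared a culture drop is not stated, and p-values then reflect only how these 6 embryos vary, which may be partly technical. In whole embryos, a smaller share of cells in S phase and less helicase RNA per cell cannot be told apart.

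Each helicase gene was found in all 6 embryos, with values that differed widely between embryos of the same group. MCM6 (bosTau8, chromosome 2, 61821896 to 61861690 over all libraries) had the highest mean over the 6 embryos. MCM6 stood at 73.9, 108 and 79.8 FPKM in MAT2A-inhibited embryos 1 to 3, against 109, 164 and 95.02 FPKM in control embryos 1 to 3. Its lowest pair of values came from treated embryos and its highest from control 2, but the groups overlapped. The group means were 87.3 ± 18.4 FPKM in MAT2A-inhibited embryos and 122.8 ± 36.7 FPKM in control embryos (SD, n = 3 each, exact two-sided permutation p = 0.2).

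MCM7 (chromosome 25, 36885892 to 36893341) lies around the miRNA genes MIR106B, MIR93 and MIR25. MCM7 stood at 147, 28.5 and 171 FPKM in MAT2A-inhibited embryos, against 27.1, 14.5 and 99.4 FPKM in control embryos. Each group thus held both low and high embryos, and the highest value was 11.8 times the lowest. The means were 115 ± 76.2 FPKM in MAT2A-inhibited embryos and 47.0 ± 45.8 FPKM in control embryos (SD, n = 3 each, exact two-sided permutation p = 0.2). In 4 of the 6 libraries the assembler joined MCM7 and MIR25 into a single row, which was counted here as MCM7. The libraries with separate rows were MAT2A-inhibited 1 and control 3, where MCM7 was high and MIR25 was listed at 0. Among libraries with the joined row, MAT2A-inhibited 3 had the highest MCM7 value of all and the other 3 had the lowest. Whether the joining affected the MCM7 values was not tested.

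MCM4 (chromosome 14, 21164863 to 21192697), which with MCM6 and MCM7 forms the part of the ring with the best-known unwinding activity in vitro, was even in the treated embryos. MCM4 stood at 54.4, 53.6 and 58.2 FPKM in MAT2A-inhibited embryos, against 55.5, 24.4 and 47.7 FPKM in control embryos. Control 2 was low and control 1 lay among the treated embryos. The means were 55.4 ± 2.46 FPKM in MAT2A-inhibited embryos and 42.5 ± 16.2 FPKM in control embryos (SD, n = 3 each, exact two-sided permutation p = 0.3). These sums include a second MCM4 row on chromosome 27 (41044072 to 41049506), which held 2.497 to 7.34 FPKM, or 5.96% to 13.2% of an embryo's MCM4 value. The RefSeq table of the later assembly ARS-UCD2.0 has 1 entry for MCM4, so the second row may share reads with the first and is uncertain.

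MCM5 (chromosome 5, 73990719 to 74009158), which closes the gate of the ring together with MCM2, stood at 10.9, 56.5 and 42.5 FPKM in MAT2A-inhibited embryos, against 11.2, 21.5 and 9.34 FPKM in control embryos. The top values were those of treated embryos 2 and 3, while treated embryo 1 lay with the controls. The means were 36.6 ± 23.4 FPKM in MAT2A-inhibited embryos and 14.035 ± 6.55 FPKM in control embryos (SD, n = 3 each, exact two-sided permutation p = 0.3). MCM3 (chromosome 23, 24438937 to 24456316), the usual neighbour of MCM5 in the ring, stood at 17.9, 14.9 and 12.1 FPKM in MAT2A-inhibited embryos, against 16.1, 39.3 and 13.8 FPKM in control embryos. Control 2 was again apart, at more than any other embryo. The means were 15.0 ± 2.91 FPKM in MAT2A-inhibited embryos and 23.0 ± 14.1 FPKM in control embryos (SD, n = 3 each, exact two-sided permutation p = 0.6). With 3 against 3 the smallest p this permutation test can give is 0.1.

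**Figure D1:**
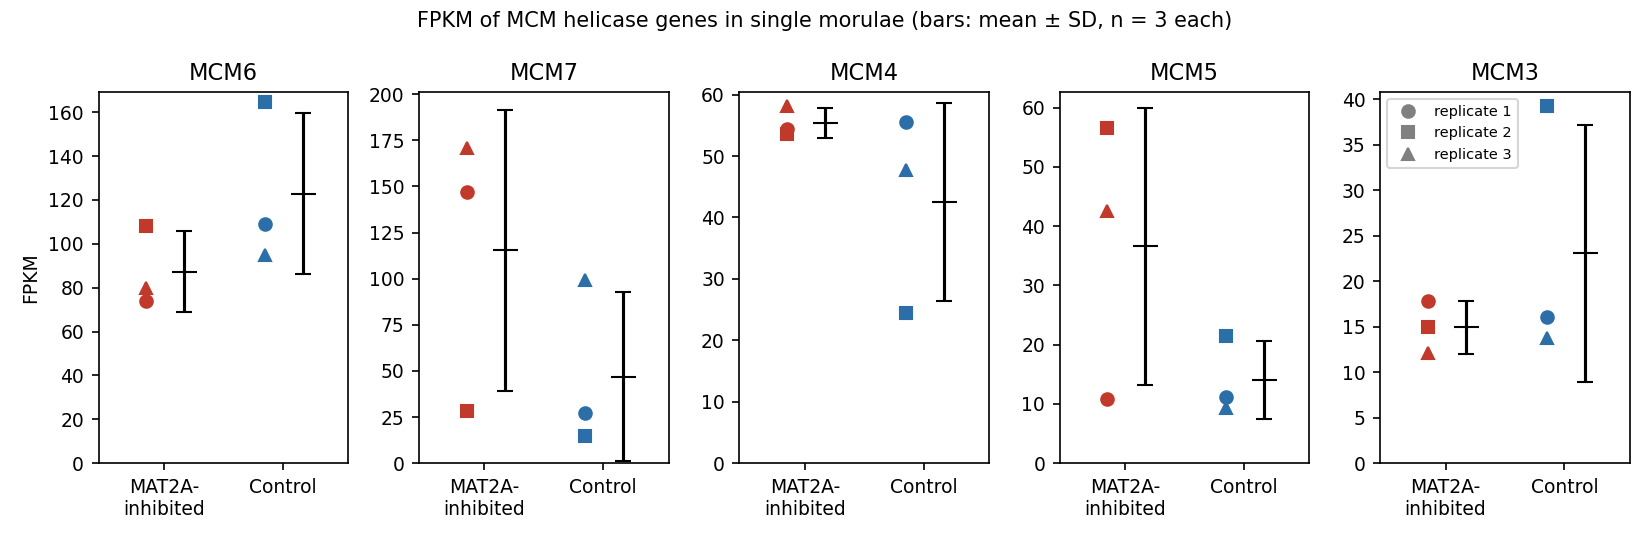
FPKM of each helicase gene (vertical axes, linear, each with its own range) in MAT2A-inhibited and control embryos, with the mean and SD of 3 embryos beside the points and the replicate number as the symbol. MCM7 ran from 14.5 to 171 FPKM and MCM5 from 9.34 to 56.5 FPKM, and the groups overlapped for all 5 genes.

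In the fit across all genes, none of the 5 was called different between the groups. On the log2(FPKM + 1) scale, which understates differences of low values, MCM7 was at 1.37 ± 0.85 (MAT2A-inhibited minus control, SE), MCM5 at 1.13 ± 0.61 and MCM4 at 0.45 ± 0.32. MCM3 was at -0.46 ± 0.41 and MCM6 at -0.47 ± 0.27. The limma adjusted p ranged from 0.772 for MCM5 to 0.830 for MCM3, and 0 of the 5 had an unadjusted p below 0.05. This compares with 3 of 7319 tested genes called at an adjusted p below 0.05, or 0.041%. The 95% intervals of the log2 difference ran from -0.60 to 3.34 for MCM7, from -0.29 to 2.54 for MCM5, from -0.30 to 1.203 for MCM4, from -1.42 to 0.50 for MCM3 and from -1.10 to 0.17 for MCM6. Of the 5 genes 3 lay above 0 and 2 below, with a median of 0.45. Among all tested genes 54.2% lay above 0, with a median of 0.04.

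The values of MCM3 and MCM4 depended on control 2. Without that embryo MCM3 was at -0.01 and MCM4 at 0.10 on the log2 scale. MCM6 also moved without control 2, from -0.47 to -0.24. Without treated embryo 1 the difference of MCM5 was 1.82 (limma adjusted p = 0.454), and without control 2 that of MCM7 was 0.78. Control 2 also had the highest NANOG and POU5F1 values, 20.3 and 431 FPKM, but the lowest SOX2 value, 27.6 FPKM. The trophectoderm markers KRT8, KRT18 and GATA3 were lowest there, at 4.49, 8.67 and 6.50 FPKM. CDX2, of the same list, was lowest in MAT2A-inhibited embryo 2 (0.188 FPKM, against 0.276 FPKM in control 2). Control 2 had the highest sum of 9 cumulus and granulosa cell markers. That sum was 3.19 to 5.48 FPKM in MAT2A-inhibited embryos and 6.65 to 19.2 FPKM in control embryos. In control 2 most of it was DCN at 11.002 FPKM and LUM at 4.81 FPKM. VIM was at 0.501 FPKM there and FSHR was listed at 0. CYP19A1 was highest in control 2, at 1.34 FPKM. COL1A2 and AMH were instead lowest in control 2, at 0.231 and 0.0595 FPKM. COL1A2 was at 4.29 and 4.06 FPKM in controls 1 and 3. Of the 9 markers, 5 were listed at 0 in some library. The sum of 4 sperm markers was 5.13 to 11.45 FPKM in MAT2A-inhibited embryos and 3.68 to 4.79 FPKM in control embryos, with PRM1 and PRM2 listed at 0 in some library. The part of these markers in the helicase values was not tested.

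The genes also differed in how far embryos of a group lay apart. The SD within groups, on the log2 scale, was 1.39 for MCM7, 0.96 for MCM5, 0.58 for MCM3, 0.44 for MCM4 and 0.35 for MCM6, against a median of 0.40 over all tested genes. MCM7 varied more than 97.7% of tested genes and MCM5 more than 91.9%. MCM6 varied more than 42.2% of them, at a mean level above that of 84.8% of tested genes.

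**Figure D2:**
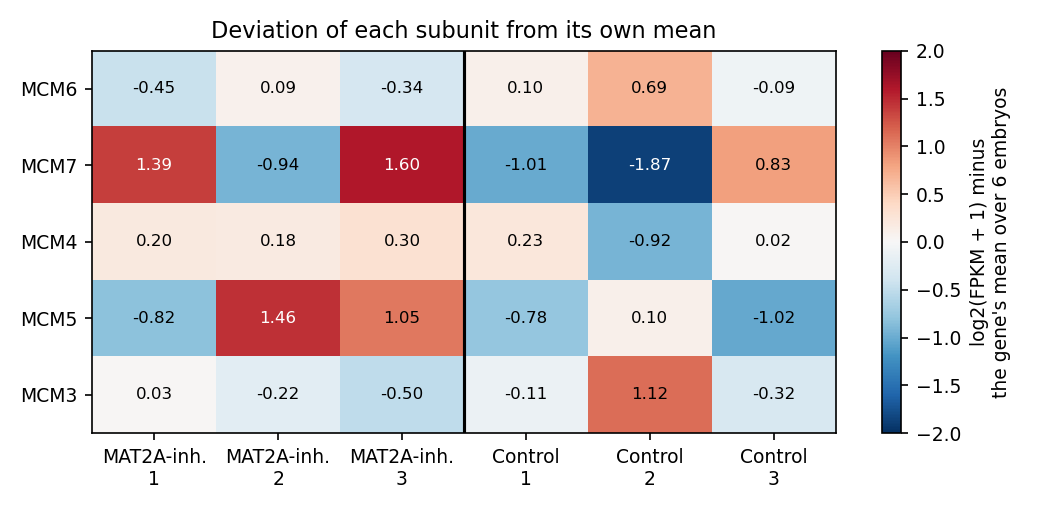
Deviation of each helicase gene (rows) in each embryo (columns, MAT2A-inhibited left of the line, control right) from its own mean over 6 embryos, on the log2(FPKM + 1) scale, with the value in each cell. MCM7 reached 1.602 in MAT2A-inhibited embryo 3 and -1.87 in control 2, where MCM3 stood at 1.12 and MCM6 at 0.69.

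The subunit genes did not all move together from embryo to embryo. MCM3 and MCM6 were the closest pair, with an SD of 0.36 for their log2 difference over embryos. For the other pairs this SD was 0.83 to 1.91. In control 2, MCM3 and MCM6 had their highest values and MCM4 and MCM7 their lowest. In MAT2A-inhibited embryo 2, MCM5 had its highest value while MCM7 stood at 28.5 FPKM. In MAT2A-inhibited embryo 1 the reverse held, with MCM5 at 10.9 FPKM and MCM7 at 147 FPKM. MAT2A-inhibited embryo 3 was high in both.

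Summed over the 5 genes, helicase transcript had a narrower fold range than each gene, as a sum of genes with unlike patterns tends to have by arithmetic. The total was 304, 262 and 363 FPKM in MAT2A-inhibited embryos, against 219, 264 and 265 FPKM in control embryos. Its highest value was 1.66 times its lowest. Group means were 309.8 ± 50.9 FPKM in MAT2A-inhibited embryos and 249 ± 26.5 FPKM in control embryos (SD, n = 3 each), and the groups overlapped, since treated embryo 2 lay below controls 2 and 3. Without MCM7 the total was 157, 233 and 193 FPKM in MAT2A-inhibited embryos, against 192, 249.7 and 166 FPKM in control embryos. The means were then 194 ± 38.2 FPKM in MAT2A-inhibited embryos and 202 ± 42.9 FPKM in control embryos (SD, n = 3 each). The difference between the mean totals (MAT2A-inhibited minus control) was 60.4 FPKM with MCM7 and -8.10 FPKM without it.

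**Figure D3:**
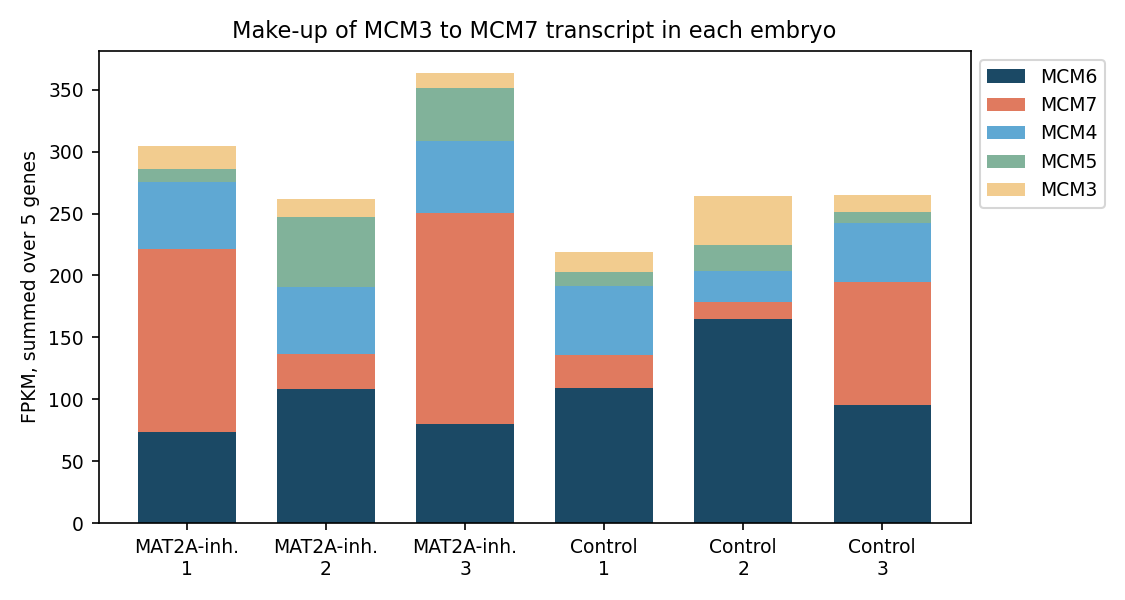
FPKM of the 5 helicase genes stacked in each embryo (vertical axis, from 0), with the 3 MAT2A-inhibited embryos left of the 3 control embryos. Totals ran from 219 to 363 FPKM, and the MCM7 segment took from 5.47% to 48.4% of them.

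The balance between subunits was uneven in every embryo. MCM7 made up 48.4%, 10.9% and 47.0% of the total in MAT2A-inhibited embryos, against 12.4%, 5.47% and 37.5% in control embryos. MCM6 made up 24.3%, 41.4% and 21.96% in MAT2A-inhibited embryos, against 49.8%, 62.3% and 35.8% in control embryos. One of these genes led in each embryo: MCM7 in MAT2A-inhibited embryos 1 and 3 and control 3, and MCM6 in the other 3. The share of MCM4 was 16.0% to 20.5% in MAT2A-inhibited embryos and 9.23% to 25.3% in control embryos. MCM5 took 3.57% to 21.6% in MAT2A-inhibited embryos and 3.52% to 8.15% in control embryos. MCM3 took 3.32% to 5.88% in MAT2A-inhibited embryos and 5.19% to 14.9% in control embryos. The most abundant subunit gene was 7.26 to 14.2 times the least abundant in MAT2A-inhibited embryos and 9.69 to 11.4 times in control embryos. The SD over subunits of log2(FPKM + 1), a measure of imbalance, was 1.49, 1.055 and 1.36 in MAT2A-inhibited embryos, against 1.29, 1.33 and 1.52 in control embryos. The lowest imbalance was that of treated embryo 2, and the other values of both groups interleaved.

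By mean level over 6 embryos the order was MCM6 (105 FPKM), MCM7 (81.2 FPKM), MCM4 (49.0 FPKM), MCM5 (25.3 FPKM) and MCM3 (19.0 FPKM). The order of the means differed by group: MCM7 stood above MCM6 in MAT2A-inhibited embryos (115 against 87.3 FPKM) and below it in control embryos (47.0 against 122.8 FPKM), and MCM5 stood above MCM3 in MAT2A-inhibited embryos (36.6 against 15.0 FPKM) and below it in control embryos (14.035 against 23.0 FPKM). MCM6 exceeded MCM4, MCM5 and MCM3 in 6 of 6 embryos each, by 1.09, 2.29 and 2.47 on the log2 scale. For each of these pairs the exact paired permutation test gave p = 0.03125, the smallest it can give with 6 embryos, and an adjusted p of 0.104 over the 10 pairs compared. The gap of MCM6 over MCM3 was the most even, with an SD of 0.36 over embryos. Neighbours in the order mostly did not differ beyond their spread: MCM6 exceeded MCM7 in 3 of 6 embryos (exact paired permutation p = 0.375), MCM7 exceeded MCM4 in 3 of 6 (exact p = 0.688) and MCM5 exceeded MCM3 in 2 of 6 (exact p = 0.719). MCM4 exceeded MCM5 in 5 of 6 (exact p = 0.0625). MAT2A-inhibited embryo 2 was the exception.

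The other MCM family genes and MCM partners did not pass the test either. MCM8, a helicase of DNA repair, was at 6.51, 6.92 and 8.58 FPKM in MAT2A-inhibited embryos, against 7.79, 5.30 and 5.65 FPKM in control embryos. MCMBP, which binds and helps to assemble MCM complexes, was at 34.8, 39.6 and 16.3 FPKM in MAT2A-inhibited embryos, against 17.9, 24.2 and 31.7 FPKM in control embryos. MCM3AP, an mRNA export factor whose name comes from its binding to MCM3, was at 7.20, 4.64 and 4.65 FPKM in MAT2A-inhibited embryos, against 3.34, 19.6 and 4.34 FPKM in control embryos. Like MCM3, MCM3AP was highest in control 2. Their log2 differences were 0.21, 0.23 and -0.29, with limma adjusted p from 0.874 to 0.912. MCM9, MCM10 and MCMDC2 were not analysed here.

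Among genes that mark origins and load the helicase, 0 of 8 tested passed in either direction, while 6 of 8 had a log2 difference below 0, with a median of -0.41. ORC6 was at 144, 194 and 141 FPKM in MAT2A-inhibited embryos, against 247, 294 and 159 FPKM in control embryos. ORC5 was at 15.4, 20.0 and 11.4 FPKM in MAT2A-inhibited embryos, against 22.3, 35.6 and 22.4 FPKM in control embryos. ORC3 was at 45.8, 45.8 and 40.6 FPKM in MAT2A-inhibited embryos, against 57.8, 93.8 and 46.3 FPKM in control embryos. These 3 are subunits of the origin recognition complex, and each was highest in control 2. For ORC3 and ORC5 every treated value lay below every control value, as it did for 5.18% of all tested genes. Their log2 differences were -0.51 and -0.74, and that of ORC6 was -0.51 (limma adjusted p from 0.746 to 0.780). Without control 2 ORC3 was at -0.23 and ORC6 at -0.33. ORC1, an ATPase subunit of the complex, and the loader CDC6 were at 0.33 and 0.22. ORC1 separated the other way, at 14.8 to 17.2 FPKM in MAT2A-inhibited embryos and 11.6 to 14.2 FPKM in control embryos. Every treated value above every control value held for 8.27% of all tested genes. Geminin (GMNN), the inhibitor of loading, was far above the helicase genes at 844 to 1177 FPKM in MAT2A-inhibited embryos and 918 to 1278 FPKM in control embryos. Without control 2 the list still had 6 of 8 genes below 0, with a median of -0.28.

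The partners that turn the loaded ring into the active helicase had 0 of 3 genes called. CDC45 was at 13.4, 4.58 and 6.32 FPKM in MAT2A-inhibited embryos, against 4.33, 5.69 and 4.45 FPKM in control embryos, so that treated embryo 1 stood apart, and the log2 difference of 0.53 was 0.14 without it. The GINS subunit GINS3 was at 11.8 to 15.6 FPKM in MAT2A-inhibited embryos and at 8.31 to 17.5 FPKM in control embryos. GINS4 was at 0.878 to 3.89 FPKM in MAT2A-inhibited embryos and at 1.89 to 5.80 FPKM in control embryos. Of 10 tested activating kinases, cyclins and factors 0 were called, with 6 above 0 and a median log2 difference of 0.05. CDC7, which phosphorylates the MCM ring, was at 17.4, 14.6 and 17.3 FPKM in MAT2A-inhibited embryos, against 8.66, 15.0 and 9.26 FPKM in control embryos. Its log2 difference was 0.58 ± 0.29 (SE, limma adjusted p = 0.759), and control 2 lay among the treated embryos. Cyclin E2 (CCNE2), a partner of CDK2 at the start of S phase, and MTBP, an origin firing factor, were at -0.53 and 0.80. Without MAT2A-inhibited embryo 3, where MTBP was at 43.5 FPKM, they were at -0.30 and 0.06.

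Genes of the polymerases and of the fork numbered 32 tested, of which 0 were called, 13 lay above 0 and 19 below, with a median of -0.05. Without control 1 the split was 17 above and 15 below. POLA1, the catalytic subunit of the polymerase that starts new strands, was at 6.45, 4.16 and 3.63 FPKM in MAT2A-inhibited embryos, against 12.7, 12.3 and 11.8 FPKM in control embryos. Every treated value lay below every control value, as for 5.18% of all tested genes. The log2 difference was -1.24 ± 0.29 (SE) and the limma adjusted p was 0.661, the smallest of the 32. PRIM1, the primase subunit that works with it, was at 34.7, 45.0 and 40.6 FPKM in MAT2A-inhibited embryos, against 70.6, 51.3 and 61.3 FPKM in control embryos (log2 difference -0.59, limma adjusted p = 0.746). The other subunits of that complex, named after their values were seen, were POLA2 at 0.52 (95% interval -0.82 to 1.86) and PRIM2 at -0.01 (-0.69 to 0.66). These intervals include the value of PRIM1 but not that of POLA1, whose own interval was -1.92 to -0.56. The difference between subunits was not tested. DNA ligase 1 (LIG1), which seals the lagging strand, was at 9.15, 37.7 and 10.5 FPKM in MAT2A-inhibited embryos, against 7.23, 5.13 and 4.58 FPKM in control embryos (log2 difference 1.33, limma adjusted p = 0.746). Without MAT2A-inhibited embryo 2, its highest, LIG1 was at 0.72. Every treated value of LIG1 lay above every control value, as for 8.27% of all tested genes. Of the 32 genes, 4 had every treated value above every control value, and 4 had every treated value below. PCNA, the sliding clamp, was also chosen after its values were seen and was at 245 to 358 FPKM in MAT2A-inhibited embryos and at 260.4 to 282 FPKM in control embryos. The clamp loader gene RFC4 was listed at 0 in MAT2A-inhibited embryo 1 and in controls 1 and 2. It stood at 60.1 to 67.9 FPKM elsewhere, so the 0 values may be failed estimates. FEN1 was likewise listed at 0 in control 1 and stood at 15.9 to 25.4 FPKM elsewhere. Both stayed in the counts of the 32 genes, with log2 differences of 2.01 for RFC4, the highest of the list, and 1.77 for FEN1. None of the 5 helicase genes was listed at 0 in any embryo.

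**Figure D4:**
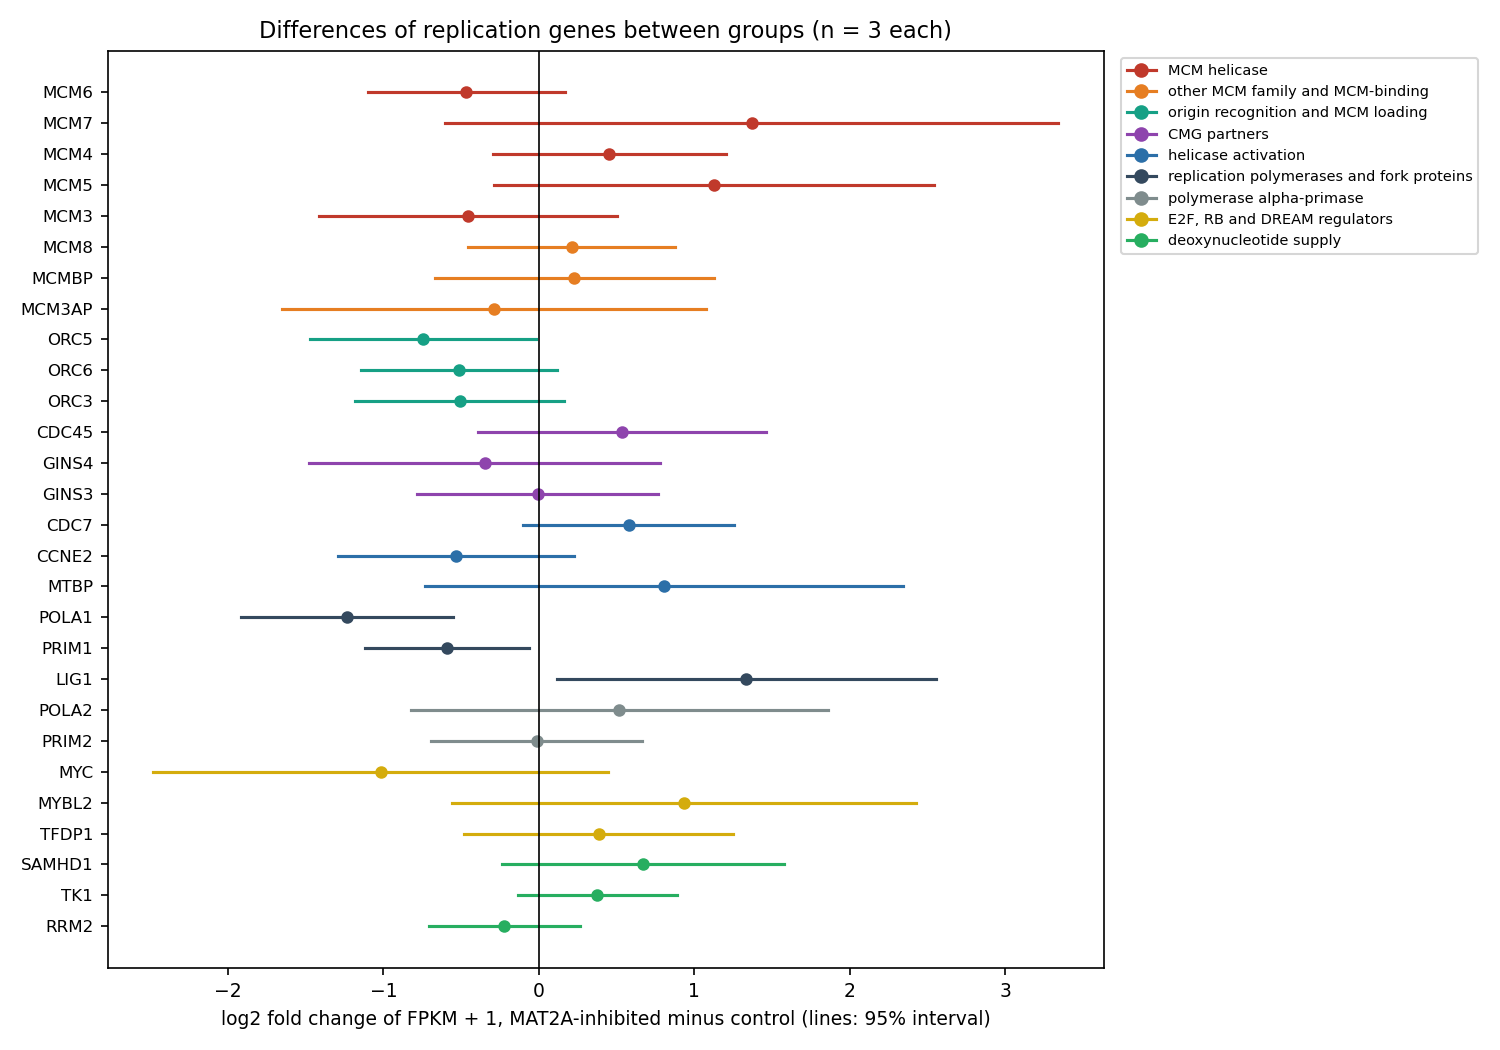
Log2 difference of FPKM + 1, MAT2A-inhibited minus control (horizontal axis), for the helicase genes and the named replication genes, coloured by list, with 95% intervals from the limma fit (n = 3 each). The intervals of all 5 helicase genes cross 0, while those of ORC5, POLA1, PRIM1 and LIG1 do not before adjustment over all tested genes.

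Of the E2F, RB and DREAM genes, known regulators of MCM transcription in the cell cycle, 9 were tested and 0 called, with 7 above 0. E2F1 was at 0.280, 0.539 and 2.07 FPKM in MAT2A-inhibited embryos and at 0.376, 0.523 and 0.017 FPKM in control embryos, too low to be tested, and was named after its values were seen. MYBL2, a partner of the DREAM subunits in activating cell cycle genes, was at 69.7, 10.8 and 16.1 FPKM in MAT2A-inhibited embryos, against 14.5, 7.87 and 13.9 FPKM in control embryos. Its log2 difference was 0.93, and 0.16 without MAT2A-inhibited embryo 1. MYC was at 1.02, 0.442 and 0.491 FPKM in MAT2A-inhibited embryos, against 0.501, 8.02 and 1.66 FPKM in control embryos, again with control 2 apart. TFDP1, the E2F dimer partner, was at 0.39 on the log2 scale, 0.13 without control 2 and 0.15 without MAT2A-inhibited embryo 3. Of 8 tested genes of deoxynucleotide supply 0 were called, with 6 above 0 and a median of 0.19. Thymidine kinase TK1 was at 36.3, 41.6 and 37.6 FPKM in MAT2A-inhibited embryos, against 32.0, 31.4 and 25.3 FPKM in control embryos. Every treated value of TK1 lay above every control value, as for 8.27% of all tested genes. SAMHD1, which degrades deoxynucleotides, and RRM2, a subunit of ribonucleotide reductase, were at 0.67 and -0.22. SAMHD1 was at 0.32 without control 2 and also with the highest row per symbol, and RRM2 was at -0.12 without MAT2A-inhibited embryo 3 and -0.36 without control 3. Without control 2 the list had 4 of 8 genes above 0, with a median of 0.0023.

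Over all replication lists other than MCM2 to MCM7, 73 genes were tested, 0 passed limma over all genes and 6 had an unadjusted p below 0.05, 1 higher and 5 lower. The share with such a p over all 7319 tested genes was 6.64%, with 271 genes higher and 215 lower. The groups did not overlap for 12 of the 73 genes, against 13.4% of all tested genes. Treated values lay above control values in 6 of the 12 and below them in 6. Of all tested genes, 8.27% had the treated values above and 5.18% had them below.

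The genes whose pattern over the 6 embryos was most like that of the helicase total were RNF220, a ubiquitin ligase, POLR1D, a subunit shared by RNA polymerases I and III, and NR2C1, an orphan nuclear receptor. Their mean absolute difference from the total, after centring on the log2 scale, was 0.055, 0.057 and 0.075, against a median of 0.37 over 7315 genes compared. POLR1D was at 208, 186 and 219 FPKM in MAT2A-inhibited embryos, against 153, 183 and 182 FPKM in control embryos. They were picked as the closest of all genes compared, and the likeness is a description of these embryos only.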

How the data were processed

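Single-embryo polyA RNA-seq libraries were made with a full-length low-input kit, per the labels' protocols. TopHat2 2.0.14 and Cufflinks 2.2.1 with build bosTau8 are named in the submitters' processing notes; for their settings, nothing was given in the sources used here. The authors deposited FPKM values, in a Cufflinks gene table for each library, per the file headers, and no scaling between libraries is recorded. Assembly in each library can join neighbouring genes: 639 symbols were in joined rows. Rows of a symbol were summed, and the 13185 symbols with an OK row of their own in all 6 libraries were kept; symbols in joined rows were left out except MCM7, which was fitted with its joined row in an added fit of 7320 genes. The 7319 genes that reached 1 FPKM in 3 or more libraries were tested by limma 3.58.1 (R 4.3.3). The model was fitted to log2(FPKM + 1) with trended variance, tests were two-sided, and Benjamini-Hochberg adjusted p-values below 0.05 were called. The fit was tested on simulated data. Single genes were also compared with exact permutation tests in scipy 1.17.1.

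Depth was read from unannotated loci of 100 to 300 bases, where the deposited FPKM bounds are multiples of 1 fragment (99.88% or more whole within 0.05 in every library, 48.8% to 49.3% at that depth divided by 2). Counts per gene were not recovered, and errors given are those between embryos. The highest share of equal values between any pair of libraries was 0%. Between 8.28% and 10.6% of annotated rows lie outside their own bounds, so bounds were not used as errors.

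The members and lists were chosen with earlier results of these data known. The named genes are the MCM family, the members of each replication list that passed and its 3 with the smallest p, and the 3 genes most like the total; cell markers are given as levels. Other genes with values (ORC1, CDC6, GMNN, PCNA, RFC4, FEN1, POLA2, PRIM2, E2F1, PRKDC and the neighbours of MCM7) were chosen after their values were seen. Alternatives were other scalings, a pseudocount of 0.1, other filters (none, or a mean of at least 5 FPKM), no trend, the replicate number as a block, the highest row per symbol in each library, and each library left out. No sequences are given, and 1 gene that the rule selects is not reported here.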

Additional observations from a re-analysis of the deposited data

How the results depend on the processing

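All 5 helicase genes kept the sign of their difference and stayed uncalled under every alternative run, with limma adjusted p from 0.454 to 0.992. Leaving out each library gave log2 differences from -0.73 to -0.01 for MCM3, 0.10 to 0.68 for MCM4, 0.68 to 1.82 for MCM5, -0.63 to -0.24 for MCM6 and 0.78 to 2.18 for MCM7. The difference of the totals ran from 33.7 to 84.3 FPKM and that of the imbalance from -0.17 to 0.05. The count of called genes, 3 in the report, was 1 with no filter, 1 with a mean of at least 5 FPKM and 1 with the replicate block, and 0 to 8 with a library left out (0 without any 1 treated embryo, 8 without control 3); no helicase gene was among them. Same-numbered embryos had correlations of deviations of 0.046, 0.103 and 0.191, and the other pairs ran from -0.212 to 0.102. MAT2A-inhibited 1 lay closer to control 2 (0.102) than to control 1 (0.046). These values cannot tell whether the replicate numbers pair the embryos, and the main fit did not pair them. With the block 572 of 7319 tested genes had an unadjusted p below 0.05 in limma, against 486 without it. With the block the unadjusted p was 0.0111 for MCM7, 0.0457 for MCM5 and 0.0494 for MCM6, with adjusted p of 0.59, 0.625 and 0.625. Of the other genes named by rule from the lists, with POLA2 and PRIM2, 6 turned sign, each when a library was left out; the other genes given with values were not refitted. The ranges over left-out libraries were -0.31 to 0.19 for GINS3 (above 0 without MAT2A-inhibited 1 or 3, or control 1 or 2), -0.65 to 0.044 for GINS4 (above 0 without MAT2A-inhibited 3 or control 3) and -0.22 to 0.19 for PRIM2 (above 0 without MAT2A-inhibited 1, or control 1 or 2). They were -0.71 to 0.41 for MCM3AP (above 0 without control 2), -0.0077 to 0.61 for MCMBP (below 0 without MAT2A-inhibited 2) and -0.028 to 0.90 for POLA2 (below 0 without MAT2A-inhibited 1). The cause was not tested. With 3 embryos a group the 95% intervals of the helicase genes were wide.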

Other observations

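The neighbours of MCM7 on chromosome 25, looked up after the MCM7 values were seen, had narrower ranges than MCM7. AP4M1, a subunit of an adaptor complex of vesicle transport (36881706 to 36885698), was at 3.03, 1.96 and 2.26 FPKM in MAT2A-inhibited embryos, against 2.37, 1.13 and 0.662 FPKM in control embryos. TAF6, a subunit of the general transcription factor TFIID, was at 0.743 to 1.71 FPKM in MAT2A-inhibited embryos and 0.361 to 1.84 FPKM in control embryos. COPS6, a subunit of the COP9 signalosome on the other side (36893605 to 36896370), was at 80.9, 91.5 and 112 FPKM in MAT2A-inhibited embryos, against 92.7, 127 and 122 FPKM in control embryos. It was thus highest in control 2, the embryo with the lowest MCM7 value. The miRNA genes MIR106B and MIR93 were listed at 0 in all 6 libraries, which were made from polyA RNA.

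Next to MCM4, the repair kinase gene PRKDC was at 3.17, 1.78 and 2.97 FPKM in MAT2A-inhibited embryos, against 3.04, 0.759 and 2.31 FPKM in control embryos. Its row was joined with H3F3C in 4 libraries. PRKDC and MCM4 both had their lowest value in control 2. MCM4 lay outside the confidence bounds of its own chromosome 14 row in 4 libraries, the same 4 in which that row kept an annotation identifier instead of an assembled one. These were MAT2A-inhibited 2 and the 3 controls, so the kind of row and the group cannot be fully told apart for MCM4. The MCM6 value of control 2, 164 FPKM, also lay outside the bounds of its own row, 151.7 to 157.2 FPKM.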
